A study of Mus musculus with 12 samples.

Results

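Endothelial cells and osteoblasts sorted from the long bones of tumor-bearing mice were compared gene by gene, with 3 arrays of each cell type, 6 of the 12 arrays in the study. The mice were female NOD SCID animals, a strain that lacks functional B and T lymphocytes, so the marrow held a reduced immune compartment in every group. Tumor-bearing mice had received 200000 MDA-MB231 scp1833 cells, a bone-homing subline of a human breast cancer line, into the heart about 2 weeks before the bones were taken. The other 6 arrays hold both cell types from tumor-free NOD SCID mice and are used here only as a second pair of groups. Osteoblasts were gated as GFP-, TR119-, CD45-, SCA1-, CD31- and CD51+ cells. Endothelial cells were gated as GFP-, TR119-, CD45-, SCA1+ and CD31+ cells. Each array is labelled a biological replicate. The labels do not say how many mice went into one, so a p-value speaks for the spread among these samples, which may be technical.

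Endothelial cells line blood vessels; in bone marrow they form sinusoids, thin leaky vessels that let blood cells pass, and arteries. They are held together by VE-cadherin, respond to VEGF and angiopoietin through receptor kinases, and owe their identity largely to ETS and SOXF transcription factors. Osteoblasts lay down type I collagen and mineralize it under the transcription factors Runx2 and Sp7. They stand close to chondrocytes of the growth plate, which make type II and type X collagen and aggrecan under Sox9. In bones that carry breast cancer cells, signals of osteoblasts such as RANKL, osteoprotegerin and prostaglandins are known to set the activity of bone-resorbing osteoclasts.

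Of 12430 genes tested with limma, 1854 (14.9%) differed between endothelial cells and osteoblasts of tumor-bearing mice at a Benjamini-Hochberg adjusted p under 0.05. Levels are the deposited log2 values, and a difference of 1 is a 2-fold difference. Of these genes 1010 (8.13%) were higher in endothelial cells and 844 (6.79%) in osteoblasts, and 729 and 624 of them differed at least 2-fold. The 3 values of one group lay wholly above those of the other for 1851 of the 1854, against 35.9% of all genes tested. The 3 with overlapping values were Gtdc1, Homer2 and Tnf, named after their values were seen. The median difference over all genes tested was 0.00025 (median SE 0.23), a value that the authors' normalization, which is not known, can set. The 3 arrays of a group correlated with each other at 0.953 to 0.966 in endothelial cells and 0.946 to 0.966 in osteoblasts; their small number limits the precision. Osteoblast replicate 3 stood apart from replicates 1 and 2 in markers of other cell types: without it limma called 1494 genes, 764 higher in endothelial cells and 730 in osteoblasts. The count was 1720 and 1326 without osteoblast replicates 1 and 2, and 1365, 1438 and 1325 without endothelial replicates 1, 2 and 3. A lower count was thus not particular to osteoblast replicate 3. Of the genes called, 17 were at least 32-fold higher in endothelial cells and 26 at least 32-fold higher in osteoblasts. Fitted on the 6 arrays of tumor-bearing mice alone, limma called 2405 genes, of which 1766 were among the 1854.

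**Figure D1:**
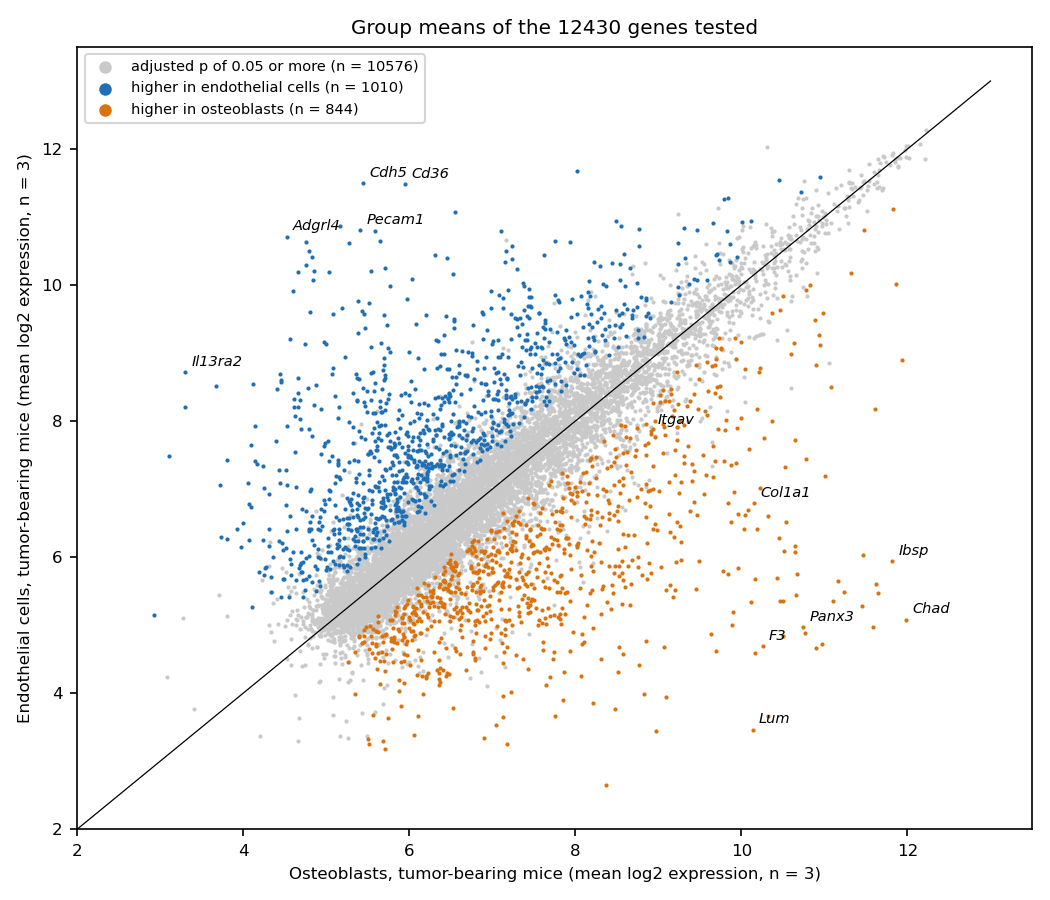
Mean log2 expression of the 12430 genes tested in osteoblasts (x axis) and endothelial cells (y axis) of tumor-bearing mice, 3 arrays each, with the line of equality. Blue points are the 1010 genes higher in endothelial cells and orange points the 844 higher in osteoblasts; Adgrl4 and Cdh5 lie far above the line, and Chad and Lum far below it.

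The sort markers were read first. Pecam1, which encodes CD31, read 10.82, 10.68 and 10.92 in endothelial cells and 5.87, 5.33 and 5.03 in osteoblasts. Pecam1 was 42.2-fold higher in endothelial cells (log2 difference 5.40, SE 0.29, limma adjusted p = 5.54e-07), as a gene that was gated on must be. Itgav, the integrin subunit CD51 of the osteoblast gate, read 9.16, 9.07 and 8.50 in osteoblasts and 7.85, 7.89 and 7.84 in endothelial cells. Itgav was thus also well above the array medians in endothelial cells, and the 2.07-fold difference (SE 0.27 on the log2 scale, limma adjusted p = 0.022) was lost, with adjusted p up to 0.0854, without any one endothelial array or osteoblast replicate 1 or 2. Ptprc, which encodes CD45 and was gated against in both populations, read 4.71, 5.07 and 4.79 in endothelial cells and 7.03, 6.87 and 4.70 in osteoblasts. Osteoblast replicates 1 and 2 were the high arrays for Ptprc, and the difference of -1.35 did not pass (SE 0.79, limma adjusted p = 0.34). Ly6a, which encodes SCA1, and the osteoblast genes Runx2, Bglap and Spp1 were not analysed here.

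The defining genes of each label were read next, and the osteoblast gate also held genes of cartilage. All 20 genes of a list of endothelial identity were higher in endothelial cells, with a median difference of 4.05. In the osteoblast gate, 9 of 12 genes of osteoblast matrix and mineralization were higher and 0 lower (median -2.73). In the same gate 15 of 16 cartilage genes were higher (median -3.70), so genes of bone and of cartilage were both high there. In bulk samples, fewer cells of a type and less RNA per cell cannot be told apart.

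Promoters of leading genes are printed first because ETS factors, which bind a GGAA core, were among the regulators that differed. RefSeq windows were available for 8 of the 12 genes with the largest difference toward endothelial cells and 8 of the 12 toward osteoblasts. The letters AGGAAG, searched on both strands in the 250 bases before the start, were found for 4 of those 8 endothelial genes and 1 of those 8 osteoblast genes. Each sequence below is the RefSeq reference (GRCm38.p6), 5′ to 3′ on the strand of the gene and ending just before the start; capitals mark AGGAAG or its reverse complement CTTCCT. Flt1 (VEGF receptor 1) lies at chr5:147726012-147726261 on the minus strand, with the motif beginning 129 and 53 bases before the start. Emcn (endomucin, a sinusoidal sialoprotein) lies at chr3:137340828-137341077 on the plus strand, with the motif 174 and 93 bases before the start. Adgrl4 (an adhesion receptor of endothelium) lies at chr3:151437632-151437881 on the plus strand, with the motif 10 bases before the start. Ibsp (bone sialoprotein, at chr5:104299037-104299286) and Chad (chondroadherin, at chr11:94564797-94565046), both on the plus strand, are shown as osteoblast counterparts without these letters in the window. The printed windows were picked by this difference. Among those not printed, Kdr, Cd36, Tek and Il13ra2 lacked the letters. Rasgrp3 held AGGAAG 49 bases before the start in its window at chr17:75435655-75435904, but its window at chr17:75465288-75465537 lacked the letters. Toward osteoblasts, Ucma held CTTCCT 18 bases before the start, and Mia, Acan, Hapln1, Pcolce2 and Cnmd lacked the letters. GGAA outside AGGAAG is not in capitals, and the Chad window holds such GGAA cores.
Flt1: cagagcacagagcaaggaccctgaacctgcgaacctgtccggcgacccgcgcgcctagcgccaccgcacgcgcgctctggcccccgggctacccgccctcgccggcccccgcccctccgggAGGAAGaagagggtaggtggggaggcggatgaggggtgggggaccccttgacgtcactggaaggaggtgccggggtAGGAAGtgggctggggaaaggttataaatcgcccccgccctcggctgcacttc
Emcn: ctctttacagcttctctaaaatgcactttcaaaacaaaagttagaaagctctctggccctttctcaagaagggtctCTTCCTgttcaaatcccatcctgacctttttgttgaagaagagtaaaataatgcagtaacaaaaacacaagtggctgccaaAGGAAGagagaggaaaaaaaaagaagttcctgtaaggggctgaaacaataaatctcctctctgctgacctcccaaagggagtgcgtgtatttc
Adgrl4: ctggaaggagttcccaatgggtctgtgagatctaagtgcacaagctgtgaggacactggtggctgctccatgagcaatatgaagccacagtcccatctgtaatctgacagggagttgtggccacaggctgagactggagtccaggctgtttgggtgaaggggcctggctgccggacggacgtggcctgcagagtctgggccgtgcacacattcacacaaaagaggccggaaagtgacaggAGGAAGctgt
Ibsp: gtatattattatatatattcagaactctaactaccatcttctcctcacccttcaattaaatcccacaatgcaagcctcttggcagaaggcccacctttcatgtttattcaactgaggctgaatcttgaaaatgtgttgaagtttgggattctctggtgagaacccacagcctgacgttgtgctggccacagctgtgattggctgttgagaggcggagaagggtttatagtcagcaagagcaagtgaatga
Chad: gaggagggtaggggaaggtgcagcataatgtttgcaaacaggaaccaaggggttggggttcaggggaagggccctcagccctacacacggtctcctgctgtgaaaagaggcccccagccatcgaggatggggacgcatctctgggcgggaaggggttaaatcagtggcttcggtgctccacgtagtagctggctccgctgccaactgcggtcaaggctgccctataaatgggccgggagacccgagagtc

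Over all genes, AGGAAG or CTTCCT stood in 34.0% of 1080 promoter windows of genes higher in endothelial cells, 27.3% of 872 windows of genes higher in osteoblasts and 28.2% of 12482 windows of all genes tested. For genes at least 4-fold apart the shares were 38.4% of 271 windows toward endothelial cells and 24.2% of 252 toward osteoblasts. The RUNX core ACCACA (both strands) stood in 10.1% of windows toward endothelial cells, 9.29% toward osteoblasts and 10.4% of all tested, and in 11.1% and 13.9% for genes at least 4-fold higher in endothelial cells and in osteoblasts. The SOX core ACAAAG (both strands) stood in 13.2%, 13.3% and 12.5% of them, and in 9.96% and 16.7% for genes at least 4-fold higher in endothelial cells and in osteoblasts. Windows of one gene can overlap, and a match of letters is a description of the window, not a binding site.

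The 12 genes with the largest difference toward endothelial cells were Adgrl4, Cdh5, Flt1, Emcn, Ptprb, Kdr, Cd36, Rasgrp3, Tek, Il13ra2, Pecam1 and Dnase1l3, between 40.9-fold and 72.7-fold higher than in osteoblasts. Adgrl4 read 10.78, 10.58 and 10.77 in endothelial cells and 4.50, 4.64 and 4.43 in osteoblasts, 72.7-fold apart (log2 difference 6.18, SE 0.13, limma adjusted p = 6.35e-10). Cdh5, which encodes VE-cadherin of endothelial junctions, read 11.51, 11.48 and 11.49 against 6.18, 5.56 and 4.59, 66.4-fold apart (log2 difference 6.05, SE 0.54, limma adjusted p = 2.25e-05). The endothelial arrays agreed closely for Cdh5, while the osteoblast arrays spread over more than 1 log2 unit with replicate 3 lowest. Flt1 read 10.65, 10.66 and 10.60 against 4.65, 4.64 and 4.98, and Kdr, the main signalling receptor of VEGF, read 10.52, 10.36 and 10.37 against 4.47, 4.99 and 5.02. Tek, the angiopoietin receptor TIE2, read 10.22, 10.25 and 10.12 against 4.49, 5.13 and 4.37, and Ptprb, a phosphatase that restrains it, read 10.80, 10.89 and 10.92 against 4.97, 5.50 and 5.01. The 12 genes were chosen for large differences without overlap, so the gap between the arrays for these receptors follows from that choice. Il13ra2, a decoy receptor for interleukin 13 that is not on any list of endothelial genes used here, read 8.57, 8.34 and 9.25 against 3.04, 3.46 and 3.41, 42.8-fold apart (log2 difference 5.42, SE 0.27, limma adjusted p = 3.42e-07). Cd36, a fatty acid receptor, read 11.51, 11.34 and 11.60 against 7.26, 5.75 and 4.82. Cd36 was 46.5-fold higher, and 73.4-fold without osteoblast replicate 1, its highest osteoblast array. Beyond these 12, Ubd (a ubiquitin-like modifier, 39.7-fold) and Clca3a1 (a chloride channel regulator, 37.5-fold) were the other genes past 32-fold that no list held, and they were chosen after their values were seen.

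The 12 genes with the largest difference toward osteoblasts were Chad, Lum, Scrg1, Mia, Acan, Hapln1, Pcolce2, Cnmd, Dcn, Ucma, Ibsp and Panx3, between 54.5-fold and 119.5-fold higher than in endothelial cells. Several of them are known from cartilage: Acan is aggrecan, Hapln1 links it to hyaluronan, Cnmd is chondromodulin, Ucma and Chad are cartilage matrix proteins, and Mia is also called cartilage-derived retinoic acid-sensitive protein. Chad read 11.92, 12.03 and 11.99 in osteoblasts and 5.74, 4.78 and 4.72 in endothelial cells, 119.5-fold apart (log2 difference -6.90, SE 0.84, limma adjusted p = 0.000218). Acan read 10.60, 11.19 and 11.10 against 5.30, 4.57 and 4.28, 76.1-fold apart (log2 difference -6.25, SE 1.09, limma adjusted p = 0.00261). The SE of both genes is wide although their tumor-bearing arrays agreed, since the fit shares its spread with the tumor-free arrays. Lum, the collagen-binding proteoglycan lumican, read 9.94, 10.24 and 10.23 against 3.64, 3.48 and 3.26, 102-fold apart (log2 difference -6.67, SE 0.30, limma adjusted p = 1.87e-07). Dcn, the related proteoglycan decorin, read 11.81, 11.67 and 11.37 against 6.25, 5.59 and 4.97, 64.6-fold apart. Ibsp, a bone matrix protein of mineralizing osteoblasts, read 11.85, 11.88 and 11.72 against 5.77, 5.54 and 6.50, 58.8-fold apart (log2 difference -5.88, SE 0.36, limma adjusted p = 1.77e-06). Panx3, a channel protein of osteoblasts and hypertrophic chondrocytes, read 9.92, 11.26 and 11.04 against 5.07, 5.31 and 4.54, with osteoblast replicate 1 lowest. These 12 genes were chosen among those whose values do not overlap, so that no endothelial array reached an osteoblast array follows from the choice.

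**Figure D2:**
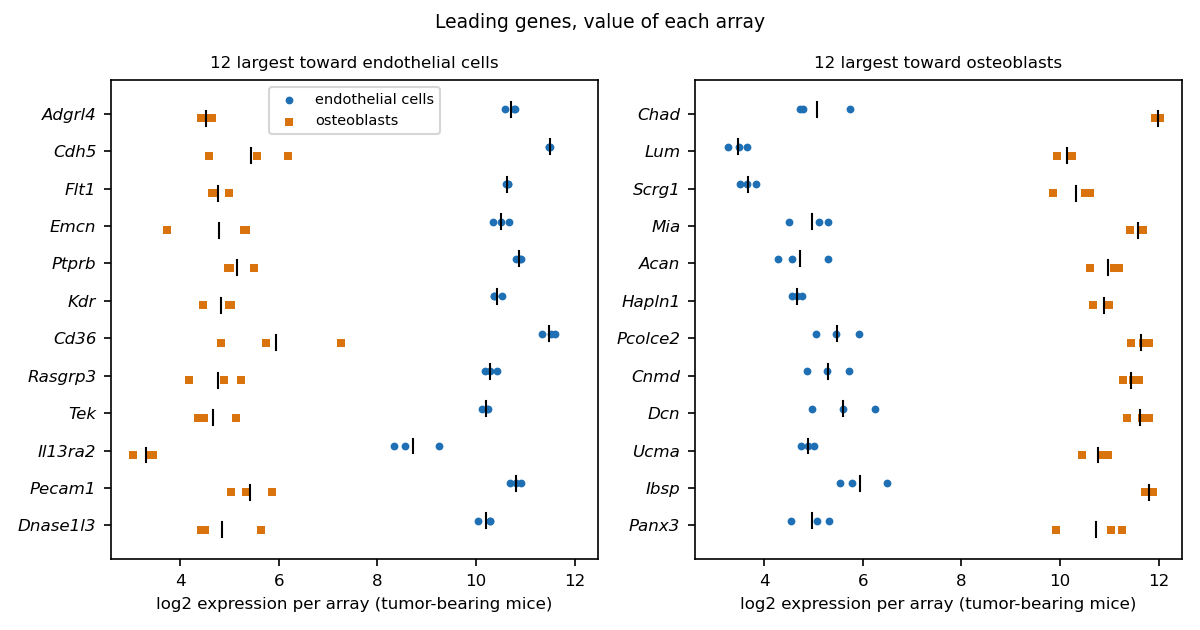
Value of each array (log2 expression, x axis) for the 12 genes with the largest difference toward endothelial cells (left) and the 12 toward osteoblasts (right) in tumor-bearing mice. Circles are the 3 endothelial arrays, squares the 3 osteoblast arrays and black ticks their means. The genes were chosen among those without overlap between the groups, and Cd36 varies most among osteoblast arrays (4.82 to 7.26).

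Genes were grouped by 49 lists of pathways and cell type markers, in which 591 of 698 genes were tested, 59 were too dim and 48 were not analysed here; 151 were higher in endothelial cells and 152 in osteoblasts. Of these 303 calls, 234 passed in each of the 12 fits that left out 1 array, and so did every leading or listed gene named here as higher unless stated. Of 20 endothelial transcription factors, 14 were higher in endothelial cells and 0 in osteoblasts (median difference 1.67, against 0.00025 over all genes tested). Sox18, a SOXF factor of vessel formation, read 9.09, 9.39 and 8.79 against 5.32, 5.26 and 6.04, 11.8-fold higher (log2 difference 3.55, SE 0.22, limma adjusted p = 1.91e-06). Erg, the ETS factor that maintains endothelial identity, read 9.29, 9.49 and 9.51 against 6.09, 6.48 and 5.67, 10.2-fold higher. Neither factor overlapped between the groups, which holds for 1851 of the 1854 genes called. The homeobox gene Hhex (12.1-fold), the SOXF factors Sox7 and Sox17 (log2 differences 3.26 and 2.85) and the ETS-family genes Fli1 and Elk3 (2.38 and 2.02) were higher too. Foxo1 (0.02), Tal1 (0.08) and the flow-responsive factors Klf2 and Klf4 (0.41 and 0.61) did not pass.

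Sinusoidal and arterial markers were both higher in the endothelial gate. Of 11 sinusoidal genes 8 were higher and 0 lower (median 3.49), and of 13 arterial genes 7 were higher and 0 lower (median 1.71). Without osteoblast replicate 3, 1 sinusoidal gene was higher in osteoblasts, and without tumor-free osteoblast replicate 1 so was 1 arterial gene. Stab2, a scavenger receptor of sinusoids, read 10.63, 10.54 and 10.68 against 5.49, 5.16 and 5.18, 40.5-fold higher (log2 difference 5.34, SE 0.39, limma adjusted p = 5.23e-06). Flt4, VEGF receptor 3, was 15.8-fold higher. Gpm6a was 37.0-fold higher, and 60.5-fold without osteoblast replicate 1. Mrc1, a mannose receptor shared with macrophages, read 10.68, 10.63 and 10.66 in endothelial cells and 8.51, 8.39 and 4.60 in osteoblasts. Mrc1 did not pass (difference 3.49, SE 1.52, limma adjusted p = 0.172). Its 2 high osteoblast arrays also had the higher macrophage list means, but Mrc1 is itself on that list and enters those means. The part of macrophages in its values was not tested. Of the arterial genes, Gja5, a connexin of arteries, read 9.02, 9.67 and 9.56 against 6.01, 5.50 and 5.67, 12.9-fold higher (log2 difference 3.69, SE 0.23, limma adjusted p = 1.89e-06). The Notch ligand Dll4 (4.84-fold) and Efnb2 (log2 difference 2.25) were also higher, whereas Hey1 (1.06), Jag1 (0.51) and Cxcr4 (0.43) did not pass.

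Of 16 genes of the VEGF and angiopoietin system, 7 were higher in endothelial cells and 2 in osteoblasts. The 7 were the receptors Flt1, Kdr, Tek, Flt4, Tie1 and Aplnr and the secreted factor Angptl4 (2.38-fold), while the co-receptors Nrp1 (1.71) and Nrp2 (0.60) did not pass. Aplnr, the apelin receptor, read 9.76, 9.72 and 9.82 against 5.53, 5.20 and 5.42, 20.9-fold higher (log2 difference 4.38, SE 0.15, limma adjusted p = 4.48e-08). Vegfa, the main ligand, read 8.07, 8.09 and 8.21 in osteoblasts and 7.16, 7.09 and 7.50 in endothelial cells, 1.83-fold higher in osteoblasts (SE 0.16 on the log2 scale, limma adjusted p = 0.00417). The groups did not overlap for Vegfa, as for nearly every gene called, and the gap was small beside those of its receptors. Angpt1, the activating ligand of TIE2, was 3.24-fold higher in osteoblasts (limma adjusted p = 0.0327), a call lost, with adjusted p up to 0.116, without any one endothelial array or without osteoblast replicate 1. Vegfc (0.24), Vegfb (-0.07), Pgf (-0.41) and Angpt2 (0.60) did not pass.

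Of 17 Notch pathway genes, 7 were higher in endothelial cells and 1 in osteoblasts (median 0.77). Notch1 read 8.08, 8.16 and 7.81 against 6.29, 6.27 and 6.07, 3.49-fold higher in endothelial cells (limma adjusted p = 4.86e-05), and its feedback target Nrarp was 3.61-fold higher. Notch2 went the other way: it read 7.54, 7.53 and 7.04 in osteoblasts and 5.87, 5.56 and 5.56 in endothelial cells, 3.26-fold higher in osteoblasts (limma adjusted p = 0.00114). The 2 receptor genes thus differed in opposite directions, with no overlap in either, as for nearly every gene called.

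Of 14 leukocyte adhesion genes 8 were higher in endothelial cells and 2 in osteoblasts. Sele, the selectin that slows rolling leukocytes and tumor cells, read 10.23, 10.21 and 10.30 against 5.64, 5.91 and 5.57, 23.3-fold higher (log2 difference 4.54, SE 0.21, limma adjusted p = 2.22e-07). F11r (22.2-fold) and Cd34 (17.6-fold) were higher too, and Vcam1 (0.44) did not pass. Cd44, the hyaluronan receptor, was higher in osteoblasts (log2 difference -2.07), and Alcam, the other such call, was lost, with adjusted p up to 0.173, in 10 of the 12 fits that left out 1 array (all but those without tumor-free osteoblast replicate 1 or 2). Of 14 cadherin, connexin and tight junction genes 11 were higher in endothelial cells, among them Cldn5 (14.5-fold). Cdh2, N-cadherin, was higher in osteoblasts (difference -2.41), 7.97-fold without osteoblast replicate 3. Cdh11, a cadherin of osteoblasts and the other osteoblast call of that list, was lost, with adjusted p up to 0.104, without any one endothelial array or osteoblast replicate 1 or 2. Of 12 genes of vascular tone and anticoagulation 8 were higher in endothelial cells and 2 in osteoblasts. Tfpi, the inhibitor of the tissue factor pathway, read 11.11, 11.01 and 11.09 against 7.34, 6.53 and 5.78, higher in endothelial cells by 4.52 on the log2 scale. F3, tissue factor itself, read 10.18, 10.69 and 9.89 in osteoblasts and 4.84, 4.73 and 4.51 in endothelial cells, 47.1-fold higher in osteoblasts (log2 difference -5.56, SE 0.74, limma adjusted p = 0.000415). Ptgis, prostacyclin synthase, was the other osteoblast call (2.71-fold). F8, clotting factor VIII, was 18.7-fold higher in endothelial cells, as were Ednrb (12.3-fold), Edn1 (11.7-fold) and Thbd (6.45-fold).

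Of 11 lipid genes 7 were higher in endothelial cells and 1, Lrp1, in osteoblasts (median 1.59). Gpihbp1, which carries lipoprotein lipase across capillaries, and the endothelial lipase Lipg were each 17.4-fold higher. Fabp4, a fatty acid binding protein, read 11.71, 11.61 and 11.71 against 8.94, 7.54 and 7.57, 12.7-fold higher, and the nuclear receptor Pparg was 5.11-fold higher. Fabp4 and Pparg were the 2 of 7 adipocyte markers that were called, while the defining markers Adipoq (-1.21) and Plin1 (-0.04) did not pass; without tumor-free endothelial replicate 3, 1 adipocyte marker was higher in osteoblasts. All 6 Gimap genes tested were higher (median 2.58); Gimap4 read 10.25, 10.12 and 10.21 against 4.88, 5.97 and 4.24, 35.9-fold apart. The Gimap genes form a cluster best known from lymphocytes. Of 12 listed B and T lymphocyte markers 6 were too dim to test, and of the 5 tested limma called 0, with 0 at an unadjusted p under 0.05. The part of lymphocytes in the Gimap values was not tested.

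The interferon-stimulated genes leaned toward endothelial cells, with 7 of 14 higher and 0 lower (median 1.06), but the count rested on single arrays. It was 4 without endothelial replicate 1 or 2, 3 without endothelial replicate 3 or osteoblast replicate 2, and 11 without osteoblast replicate 1, the osteoblast array with the highest list mean (7.26, against 6.50 and 5.97). Mx2, an antiviral GTPase, read 7.13, 6.54 and 6.55 against 4.92, 3.81 and 3.53, 6.29-fold higher in endothelial cells (log2 difference 2.65, SE 0.35, limma adjusted p = 0.00036). The chemokine Cxcl9 read 9.86, 9.70 and 9.26 against 8.41, 6.45 and 5.77, 6.64-fold higher and 11.3-fold higher without osteoblast replicate 1. Osteoblast replicate 1 was again the high array of its group for both genes.

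**Figure D3:**
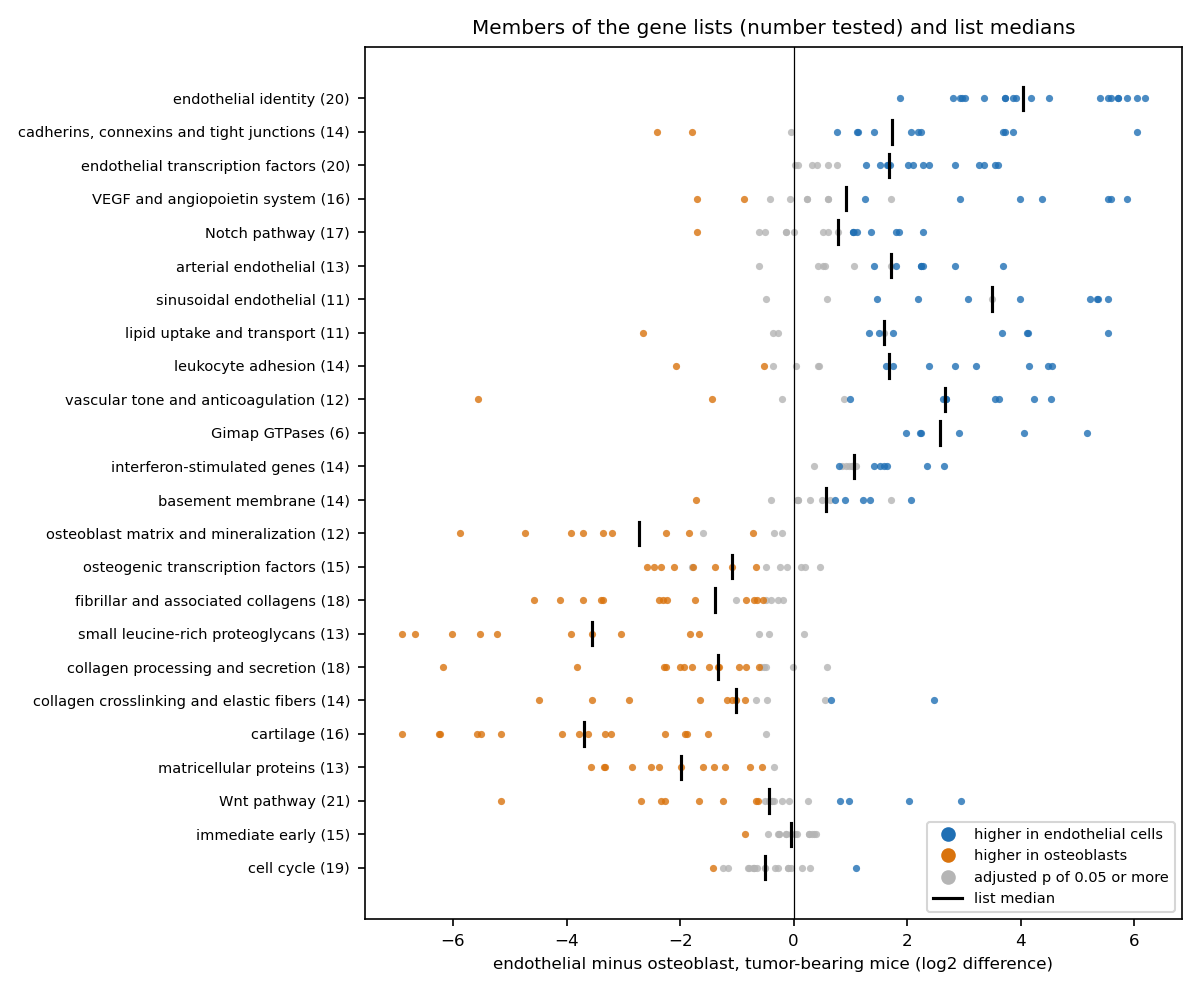
Difference between endothelial cells and osteoblasts of tumor-bearing mice (log2, x axis) for every tested member of 24 gene lists, with the number tested in brackets and a black bar at the list median. Blue and orange points passed the limma threshold; all endothelial identity genes lie to the right, and cartilage, proteoglycan and matricellular genes lie almost wholly to the left.

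Osteoblast genes were described next. Of 12 genes of osteoblast matrix and mineralization, 9 were higher in osteoblasts. Col1a1, the main collagen of bone, read 10.40, 10.19 and 9.85 in osteoblasts and 6.88, 6.85 and 6.63 in endothelial cells, 10.3-fold apart (log2 difference -3.36, SE 0.61, limma adjusted p = 0.00338), and its partner Col1a2 was 13.1-fold apart. Pth1r, the receptor of parathyroid hormone, read 10.02, 10.65 and 10.62 against 5.34, 5.55 and 6.20, 26.6-fold higher in osteoblasts (log2 difference -4.73, SE 0.34, limma adjusted p = 5.17e-06). Alpl, the phosphatase that frees phosphate for mineral, was 9.21-fold higher. Sparc (-0.35), Ifitm5 (-0.21) and Phospho1 (-1.60) did not pass. Of 15 osteogenic transcription factors 8 were higher in osteoblasts and 0 in endothelial cells (median -1.09). Sp7, osterix, read 7.99, 8.12 and 7.71 against 5.26, 5.96 and 4.82, 6.03-fold higher (limma adjusted p = 0.000312), and Dlx5 was 5.49-fold higher. Of 8 osteocyte genes 5 were higher in osteoblasts, among them Phex (11.8-fold) and Dmp1 (6.04-fold), whereas Sost (-0.18) and Fgf23 (0.31), made by mature osteocytes, did not pass.

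Cartilage genes gave the largest list median of the osteoblast side. Of 16 genes, 15 were higher in osteoblasts, and the exception Ihh (-0.49) did not pass. Sox9, the master regulator of chondrocytes, read 10.24, 10.09 and 9.76 in osteoblasts and 6.49, 6.40 and 6.34 in endothelial cells, 12.3-fold apart (log2 difference -3.62, SE 0.54, limma adjusted p = 0.000971). Its partners Sox5 (3.70-fold) and Sox6 (4.79-fold) were higher as well. Col2a1, the collagen of cartilage, read 9.38, 10.64 and 10.54 against 6.41, 6.61 and 6.22, 13.7-fold apart (log2 difference -3.77, SE 0.37, limma adjusted p = 4.86e-05). Col10a1, the collagen of hypertrophic chondrocytes, read 9.61, 11.06 and 10.83 against 5.75, 5.53 and 4.76, 35.5-fold apart. Comp was 45.4-fold higher. Matn1 was 9.27-fold higher, and 14.9-fold without osteoblast replicate 1. The mean of the 16 genes was 9.06, 9.79 and 9.75 on the osteoblast arrays and 5.82, 5.74 and 5.48 on the endothelial arrays, so every osteoblast array carried them, replicate 1 least. In the tumor-free osteoblasts that mean was 9.03, 7.85 and 6.44, a wider range than in tumor-bearing mice. The part of chondrocytes in the osteoblast values was not tested.

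Of 18 fibrillar and associated collagens 13 were higher in osteoblasts and 0 in endothelial cells (median -1.38). Col12a1, which decorates type I fibrils, read 10.47, 10.76 and 10.70 against 5.87, 5.99 and 6.37, 23.7-fold apart (log2 difference -4.57, SE 0.17, limma adjusted p = 4.61e-08). Of 13 small leucine-rich proteoglycans 10 were higher in osteoblasts and 0 in endothelial cells (median -3.56), among them Fmod (37.2-fold). Of 13 matricellular proteins 12 were higher in osteoblasts (median -1.98), the exception being Sparc. Ccn2, connective tissue growth factor, was 5.73-fold higher and Thbs3 11.9-fold. Thbs4 was 10.2-fold higher, and 15.9-fold without osteoblast replicate 3.

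Of 18 genes that process and secrete collagen 13 were higher in osteoblasts (median -1.32), and 8 without endothelial replicate 1 or osteoblast replicate 2. The lysyl hydroxylase Plod2 read 10.97, 11.01 and 11.04 against 7.11, 6.79 and 7.68, 14.1-fold apart. Of 14 crosslinking and elastic fiber genes 8 were higher in osteoblasts and 2 in endothelial cells. The lysyl oxidases Loxl4 (22.5-fold) and Loxl3 (11.7-fold) were on the osteoblast side. Fbln2, fibulin 2, read 8.13 on all 3 endothelial arrays and 5.83, 5.67 and 5.47 in osteoblasts, 5.54-fold higher in endothelial cells (log2 difference 2.47, SE 0.15, limma adjusted p = 1.89e-06). Of the 2 endothelial calls Fbln2 held throughout, while Eln did not pass without endothelial replicate 2 or 3 or osteoblast replicate 1, which left 1. Of 14 basement membrane genes 5 were higher in endothelial cells and 1 in osteoblasts; 3 were endothelial without endothelial replicate 1, 2 or 3 or osteoblast replicate 2 or 3, and 0 were osteoblast without endothelial replicate 1 or osteoblast replicate 2 or 3. Nid1, the laminin-binding nidogen, was 4.21-fold higher in endothelial cells.

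Of 19 proteases and inhibitors 4 were higher in endothelial cells and 6 in osteoblasts (median -0.30). Mmp13, the collagenase of osteoblasts and hypertrophic chondrocytes, read 11.35, 10.57 and 9.70 against 6.83, 6.93 and 5.78, 16.3-fold higher in osteoblasts (log2 difference -4.03, SE 0.67, limma adjusted p = 0.00191). Mmp16 (log2 difference -3.45), Mmp2 (9.76-fold) and the inhibitor Timp1 (34.5-fold) were also higher in osteoblasts. The aggrecanases Adamts5 and Adamts4 were 4.32-fold and 4.31-fold higher in endothelial cells. Mmp14 (-0.07), which activates Mmp2, and Mmp9 (-2.57) did not pass.

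Signalling pathways held calls in both directions. Of 21 Wnt genes 4 were higher in endothelial cells and 8 in osteoblasts. The endothelial count was 2 without endothelial replicate 1, 2 or 3 or osteoblast replicate 2; the osteoblast count was then 5, 4, 3 and 3. Fzd4, the receptor for norrin, read 8.41, 7.94 and 8.60 against 5.94, 5.27 and 4.90, 7.70-fold higher in endothelial cells (limma adjusted p = 0.00025), and Fzd6 was 4.10-fold higher. Frzb, a secreted Wnt inhibitor of cartilage, read 8.23, 9.69 and 9.37 against 3.80, 4.26 and 3.78, 35.5-fold higher in osteoblasts (log2 difference -5.15, SE 0.79, limma adjusted p = 0.00113), and the Wnt enhancer Rspo3 was 6.44-fold higher. Axin2, a common Wnt target, did not pass (-0.20).

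Of 22 BMP and TGF-beta genes 6 were higher in endothelial cells and 5 in osteoblasts; the first count was 3 without any one endothelial array or osteoblast replicate 2 or 3. The endothelial calls of the co-receptor Eng (15.0-fold) and the receptor Acvrl1 (2.83-fold) held throughout. On the osteoblast side were the receptor Bmpr1a (5.76-fold) and the ligand Tgfb2, which read 8.88, 9.70 and 8.99 against 6.28, 5.95 and 6.65, 7.46-fold apart (limma adjusted p = 0.00113). Of 9 hedgehog and parathyroid hormone pathway genes 4 were higher in osteoblasts and 0 in endothelial cells, among them Ptch1 (4.13-fold) and Gli3 (4.35-fold). Of 14 FGF genes 1 was higher in endothelial cells, the feedback phosphatase Dusp6 (1.71), and 5 in osteoblasts, against 8.13% and 6.79% of all genes tested. The osteoblast count was 2 without endothelial replicate 1 or 2 or osteoblast replicate 2, and 3 without osteoblast replicate 3; the endothelial count was 2 without tumor-free endothelial replicate 1 or osteoblast replicate 1. Fgfr1, 2.64-fold higher in osteoblasts, passed in each of these fits.

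Of 12 regulators of osteoclasts 4 were higher in endothelial cells and 4 in osteoblasts. Tnfrsf11b, osteoprotegerin, which blocks osteoclast formation, read 7.62, 8.19 and 7.14 in osteoblasts and 5.02, 5.07 and 4.94 in endothelial cells, 6.23-fold apart (log2 difference -2.64, SE 0.29, limma adjusted p = 0.000125). Ptgs2, the inducible cyclooxygenase that makes prostaglandins, read 10.47, 10.56 and 9.30 against 5.20, 5.94 and 4.88, 27.4-fold apart (log2 difference -4.77, SE 0.44, limma adjusted p = 3.3e-05). The cytokine Il11 was 2.66-fold higher in osteoblasts. Tnfsf11, RANKL, read 8.39, 7.51 and 7.84 in osteoblasts and 6.96, 7.38 and 6.91 in endothelial cells. Tnfsf11 was 1.77-fold higher in osteoblasts (limma adjusted p = 0.0399), a call lost, with adjusted p up to 0.138, without any one tumor-free endothelial array, endothelial replicate 1 or 3 or osteoblast replicate 1 or 3. Sema3a, a secreted semaphorin known to protect bone, averaged 9.15 ± 0.19 (SD, n = 3) in endothelial cells and read 5.96, 5.38 and 5.63 in osteoblasts, 11.2-fold higher in endothelial cells (log2 difference 3.49, SE 0.22, limma adjusted p = 1.89e-06). Csf1 (0.04) and Il6 (1.61) did not pass.

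Of 25 ephrin, semaphorin and other guidance genes 10 were higher in endothelial cells and 5 in osteoblasts (median 0.64). Class 3 semaphorins split: Sema3a was endothelial, and Sema3d read 8.19, 8.08 and 6.99 in osteoblasts against 3.81, 3.57 and 3.60, 17.1-fold higher there (limma adjusted p = 0.000424). The repellent Slit2 was 6.45-fold higher in osteoblasts, while the guidance receptor Robo4 was endothelial (log2 difference 2.80). Lysophospholipid receptors split likewise: Lpar6 (8.23-fold) and S1pr1 (6.33-fold) were endothelial and Lpar1 was 5.37-fold higher in osteoblasts, the 3 calls among 8 tested. Without tumor-free osteoblast replicate 1 there were 2 osteoblast calls in that list. Of 18 inflammatory cytokines and chemokines 3 were higher in endothelial cells and 2 in osteoblasts, against 8.13% and 6.79% of all genes tested. Lif, a cytokine of the interleukin 6 family, read 7.33, 8.86 and 6.99 in osteoblasts and 4.54, 4.69 and 4.26 in endothelial cells, 9.39-fold higher in osteoblasts (limma adjusted p = 0.000619). Tnf, the other osteoblast call of that list, was lost, with adjusted p up to 0.155, without any one endothelial array of either kind of mouse or osteoblast replicate 1 or 2, and was 5.02-fold apart without osteoblast replicate 3. The endothelial count of that list was 1 without endothelial replicate 3 or osteoblast replicate 3.

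Of 17 hypoxia and glycolysis genes 1 was higher in endothelial cells and 4 in osteoblasts, against 8.13% and 6.79% of all genes tested. Hk2, the inducible hexokinase, read 8.84, 9.41 and 8.29 in osteoblasts and 5.28, 4.87 and 4.15 in endothelial cells, 16.9-fold apart (log2 difference -4.08, SE 0.39, limma adjusted p = 3.79e-05), while Hk1 (0.02) did not pass. Of 15 immediate early genes, which are known to rise quickly when cells are handled, 1 was called, Egr2, and without any one tumor-bearing array it was not, with adjusted p up to 0.0814. The list mean was 9.37, 9.38 and 9.33 on endothelial arrays and 9.38, 9.47 and 9.37 on osteoblast arrays. Of 19 cell cycle genes, Pcna was 2.13-fold higher in endothelial cells and Birc5 was higher in osteoblasts, the latter lost, with adjusted p up to 0.178, in 10 of 12 fits that left out 1 array. Mki67 read 6.65, 6.68 and 8.06 in osteoblasts and 5.90, 6.08 and 5.96 in endothelial cells and did not pass (limma adjusted p = 0.0802), with osteoblast replicate 3 highest. Over all genes tested 14.9% were called, so the immediate early and cell cycle counts are no result about those lists.

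Integrin, growth factor and stromal lists gave calls that often rested on 1 array. Of 17 integrin genes 4 were higher in endothelial cells and 5 in osteoblasts; the first count was 2 without endothelial replicate 1 or 3 or osteoblast replicate 2, and the second 3 without any one endothelial array or osteoblast replicate 1 or 2. Itga10, a collagen receptor of chondrocytes, read 7.41, 7.74 and 7.63 in osteoblasts and 5.26, 5.20 and 5.20 in endothelial cells, 5.16-fold apart, while Itga2, another collagen receptor, was 3.88-fold higher in endothelial cells. Of 8 fibroblast markers 4 were higher in osteoblasts, among them Fap (log2 difference -4.17), a protease of activated stroma. Of 12 smooth muscle and pericyte markers 2 were higher in each cell type; Mcam (3.35-fold) was endothelial and Cspg4 (3.65-fold) osteoblast. Leaving out endothelial replicate 3 left 1 osteoblast call there, and leaving out any one endothelial array of either kind of mouse or osteoblast replicate 2 or 3 left 1 endothelial call.

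Of 11 insulin-like growth factor genes 2 were higher in endothelial cells and 1 in osteoblasts, against 8.13% and 6.79% of all genes tested. The endothelial count was 1 without endothelial replicate 1 or 2 or osteoblast replicate 3, 0 without endothelial replicate 3 and 4 without osteoblast replicate 1. The osteoblast count was 0 without endothelial replicate 1 or 3 or osteoblast replicate 1 or 2, and 3 without tumor-free osteoblast replicate 1. Over all genes tested 14.9% were called, so 1 call among 12 antigen presentation genes is no result about that list. The call was Psmb8, an immunoproteasome subunit, 2.90-fold higher in endothelial cells (limma adjusted p = 0.044). It was lost, with adjusted p up to 0.163, and the count was 0, without any one endothelial array of either kind of mouse or osteoblast replicate 2 or 3; the count was 4, 2 and 2 without tumor-free osteoblast replicates 1, 2 and 3.

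Markers of other cell types set osteoblast replicate 3 apart from replicates 1 and 2. The mean of 11 monocyte and macrophage genes was 7.30, 6.88 and 5.01 on the osteoblast arrays and 5.70, 5.87 and 5.70 on the endothelial arrays. Lyz2, lysozyme of myeloid cells, read 8.95, 8.83 and 5.44 in osteoblasts and 4.84, 5.56 and 5.49 in endothelial cells, and did not pass (difference -2.44, SE 1.14, limma adjusted p = 0.21). The 8 neutrophil genes averaged 6.86, 6.75 and 5.46 in osteoblasts and 5.64, 6.27 and 5.94 in endothelial cells. The 8 megakaryocyte genes ran opposite, at 5.86, 6.05 and 7.59 in osteoblasts and 6.40, 6.74 and 5.87 in endothelial cells, as did the cell cycle genes at 6.12, 6.27 and 7.19 against 6.11, 5.98 and 6.15. The stem cell niche list, of which Cxcl12 is the best known member, averaged 8.84, 8.17 and 7.53 in osteoblasts and 7.39, 7.40 and 7.32 in endothelial cells, highest in osteoblast replicate 1. Of its 16 genes 1 was higher in endothelial cells and 3 in osteoblasts, with 7 and 5 osteoblast calls without tumor-free osteoblast replicates 1 and 3. The shares over all genes tested were 8.13% and 6.79%. Cxcl12 itself read 11.18, 10.53 and 10.13 in osteoblasts and 9.79, 9.85 and 9.88 in endothelial cells, and did not pass (limma adjusted p = 0.328).

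Of these hematopoietic lists, 1 of 11 macrophage genes (Cd14, 4.22-fold higher in endothelial cells), 1 of 8 megakaryocyte genes (Vwf, also an endothelial gene) and 1 of 7 osteoclast genes (Nfatc1, 3.49-fold higher in osteoblasts) were called. Over all genes tested 14.9% were called, so these counts are near that share and are no result about the lists. Of 8 neutrophil genes limma called 0, with 1 at an unadjusted p under 0.05, and of 6 erythroid genes 0, with 0 at an unadjusted p under 0.05. Without tumor-free osteoblast replicate 1, 1 neutrophil gene was higher in osteoblasts, 2 macrophage genes were higher in endothelial cells and 4 in osteoblasts, and 2 osteoclast genes were higher in osteoblasts. The part of these cells in the other differences was not tested.

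**Figure D4:**
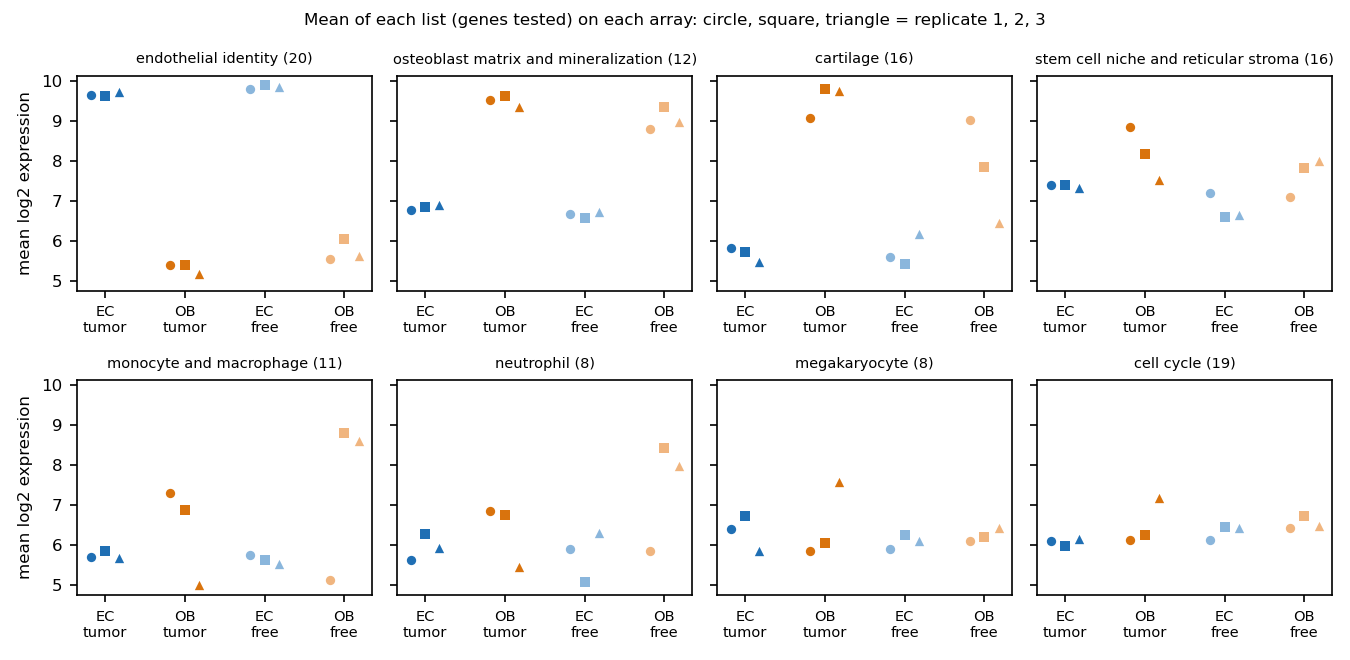
Mean log2 expression of the tested members of 8 gene lists on each of the 12 arrays; EC and OB are endothelial cells and osteoblasts, tumor and free are tumor-bearing and tumor-free mice, and circle, square and triangle are replicates 1, 2 and 3. Osteoblast replicate 3 of tumor-bearing mice is lowest of its group for macrophage and neutrophil genes (5.01 and 5.46) and highest for megakaryocyte and cell cycle genes (7.59 and 7.19).

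The same cell type difference was then set beside that of tumor-free mice. There limma called 3850 genes (31.0%), and 1264 genes were called in both, 68.2% of the calls in tumor-bearing and 32.8% of those in tumor-free mice. Of these, 1252 had the same direction and 12 the opposite. Both sets of calls use 1 spread per gene shared by the 4 groups. The median gene SD ran from 0.139 in tumor-free endothelial cells to 0.245 in tumor-free osteoblasts. The counts therefore cannot tell in which mice the cell types differed more. Of the 1854 genes called in tumor-bearing mice 1760 had the same direction in tumor-free mice, called or not. Across all genes tested the 2 differences correlated at 0.767, a description over genes that are not independent. Endothelial identity genes were close in both, with medians of 4.05 in tumor-bearing and 3.98 in tumor-free mice. Cartilage genes had medians of -3.70 and -1.73, and matricellular genes -1.98 and -0.82, and limma's test of the difference between the 2 comparisons called 0 of the 16 cartilage genes and 0 of the 13 matricellular genes, with 8 and 6 at an unadjusted p under 0.05. Tumor-free osteoblasts were the most variable group, with replicate correlations of 0.867 to 0.908 against 0.946 to 0.966 for tumor-bearing osteoblasts. The cartilage list mean on tumor-free endothelial arrays was 5.59, 5.41 and 6.17, highest on replicate 3. There Hapln1 and Acan read 7.42 and 6.25, above tumor-free osteoblast replicate 3 (6.08 and 5.26). Chad and Comp read 7.82 and 7.27, below it (8.64 and 8.01). The part of this endothelial array in the tumor-free cartilage median was not tested.

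The test of whether a cell type difference itself differed between tumor-bearing and tumor-free bone called 26 genes (0.209%), 4 (0.0322%) with a more positive and 22 (0.177%) with a more negative difference in tumor-bearing mice. Abcb1b, a drug efflux transporter, read 6.00, 6.31 and 6.13 in endothelial cells and 3.95, 4.14 and 3.81 in osteoblasts when mice carried tumors. In tumor-free mice Abcb1b averaged 4.06 ± 0.28 in endothelial cells and 4.36 ± 0.60 in osteoblasts (SD, n = 3), so only the endothelial cells of tumor-bearing mice were high (difference of differences 2.48, SE 0.38, limma adjusted p = 0.0329). Kera, keratocan, a small proteoglycan, read 6.42, 7.50 and 6.79 in osteoblasts against 3.41, 3.29 and 3.34 in endothelial cells when mice carried tumors. In tumor-free mice Kera read 5.03, 3.92 and 3.98 in osteoblasts and 3.39, 3.49 and 3.57 in endothelial cells (difference of differences -2.73, SE 0.44, limma adjusted p = 0.0413). Abhd2, a lipid hydrolase, changed sides: it was 2.24-fold higher in osteoblasts of tumor-bearing mice and higher in endothelial cells of tumor-free animals by 1.42 on the log2 scale (difference of differences -2.59, SE 0.40, limma adjusted p = 0.0329). The tumor-bearing call of Abhd2 was lost, with adjusted p up to 0.0735, without endothelial replicate 3 or osteoblast replicate 2. Mean levels were higher in tumor-bearing than tumor-free mice in osteoblasts for 22 of the 26 genes and in endothelial cells for 6. These counts use the same values that chose the 26 genes, so they only describe them. Which cell type changed was not tested here.

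The count of 26 rested on single arrays. It was 0 without tumor-free endothelial replicate 2 or 3, any one tumor-bearing endothelial array or tumor-bearing osteoblast replicate 2, with 1472 to 1948 genes at an unadjusted p under 0.05 in those limma fits, against 1990 over all arrays. It was 545, 223 and 40 without tumor-free osteoblast replicates 1, 2 and 3, and 13 without tumor-bearing osteoblast replicate 3. Of the 3 genes just described, Abcb1b and Abhd2 passed in 4 and Kera in 3 of the 12 fits that left out 1 array, with differences of differences between 2.14 and 2.66 for Abcb1b and between -2.43 and -3.09 for Kera.

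**Figure D5:**
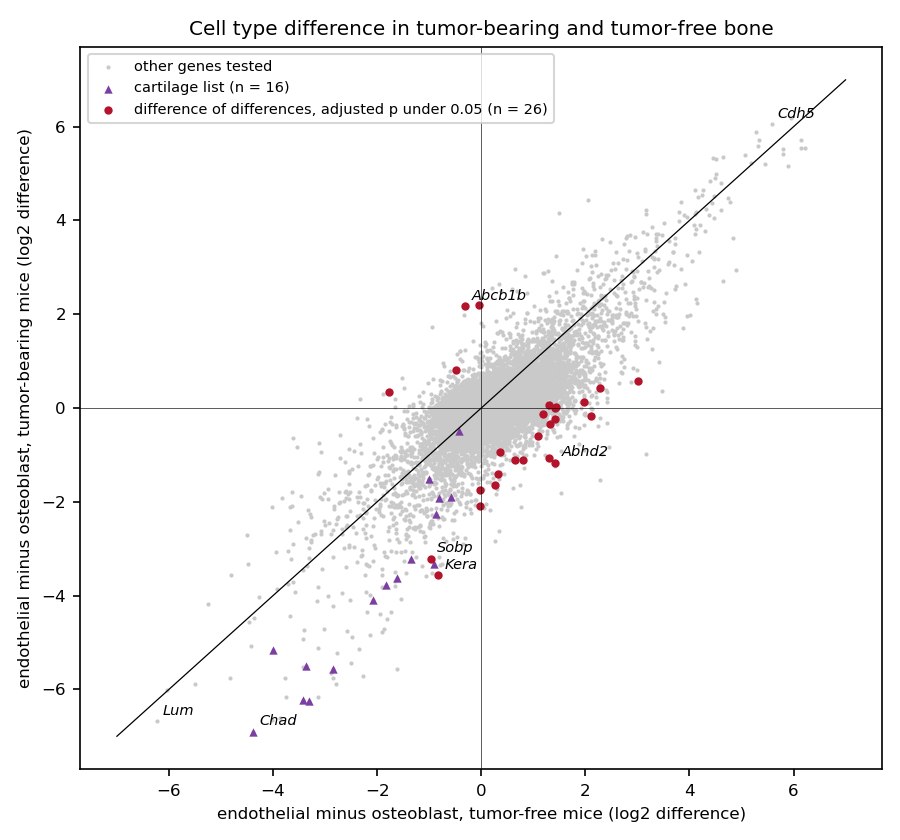
Difference between endothelial cells and osteoblasts (log2) in tumor-free mice (x axis) and tumor-bearing mice (y axis) for all genes tested, with the line of equality. Red circles are the 26 genes whose differences differed at an adjusted p under 0.05, and purple triangles the 16 cartilage genes, which lie below the line.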

How the data were processed

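Sorted-cell RNA was amplified by SPIA and biotin-labelled, per the labels' protocols. The deposited table holds log2 values of 34760 probe sets on 12 arrays, made by the authors with affy per the submitters' processing notes; which background correction and normalization they used is not stated there or in the labels. They could compress folds of dim and bright genes. Of the probe sets 21640 carried 1 gene symbol, 1321 several and 11799 none in the platform annotation, and the probe set with the highest mean stood for each of 19937 genes. A gene was tested (12430 genes) if 3 or more arrays read it above the median probe set. One limma 3.58.1 model (R 4.3.3) with 1 mean per group over all 12 arrays gave both cell type differences and their difference, two-sided, with Benjamini-Hochberg adjustment over all genes tested and a threshold of 0.05. Scripts were tested on simulated data. Groups came from sample titles, and 0 of 66 pairs of arrays held identical values.

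The comparison, the gene lists and the naming rule were chosen with earlier results of these data known, so a list's direction is not independent evidence. Named genes are the 12 largest differences each way without overlap, the 5 largest each way for the difference of differences (only 4 passed on the positive side), the sort markers, and from each list the 3 smallest p-values and members that did not pass where a sentence needs them. Genes outside this rule, named after their values were seen, are Adamts4, Adamts5, Alcam, Angpt1, Angptl4, Cd34, Cdh11, Cdh2, Clca3a1, Col10a1, Col1a1, Col1a2, Dmp1, Edn1, Eln, F3, Fli1, Fmod, Frzb, Gpm6a, Gtdc1, Hhex, Homer2, Il11, Lrp1, Matn1, Mmp13, Notch2, Ptgis, Sema3d, Slit2, Sox17, Sox6, Sox7, Sox9, Tfpi, Tgfb2, Thbs4, Tie1, Tnf, Tnfrsf11b, Tnfsf11, Ubd and Vegfa. Alternatives were other filters, normalizations, weights, a fold minimum, a replicate block, the 6 arrays alone and each array left out. The promoter motifs were chosen after the data were seen, and promoter windows come from RefSeq, not from the NOD strain.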

Additional observations from a re-analysis of the deposited data

Results flagged for a closer look

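For 9 named genes the endothelial minus osteoblast difference itself differed between tumor-bearing and tumor-free mice in limma's test of the difference of differences (adjusted p under 0.05, log2 scale). Positive values mean that the signed difference was more positive in tumor-bearing mice, not that the gap was wider. They were 2.48 for Abcb1b, 2.23 for Ablim3, 2.11 for Stxbp6 and 1.29 for Acr. On the negative side they were -2.73 for Kera, -2.59 for Abhd2, -2.44 for Mtmr12, -2.37 for Slc41a1 and -2.28 for Lbp. In tumor-bearing mice Stxbp6, Mtmr12 and Lbp did not pass (differences 0.34, 0.58 and -0.18, limma adjusted p = 0.413, 0.0755 and 0.715). In tumor-free mice their differences were -1.77, 3.01 and 2.10. Mtmr12, Slc41a1 and Lbp passed in 6 of the 12 fits that left out 1 array, Abcb1b, Ablim3, Stxbp6 and Abhd2 in 4, Kera in 3 and Acr in 2.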

How the results depend on the processing

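Against 1854 genes called by limma (1010 higher in endothelial cells, 844 in osteoblasts), a test against a 2-fold minimum called 391 (219 and 172) and array weights called 3733 (1936 and 1797). The other settings gave 1627 to 2486 genes, and leaving out 1 array gave 1325 to 2376 (731 to 1272 and 567 to 1104). No called gene changed sign under median centering or quantile normalization.

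The 26 genes whose difference differed between tumor-bearing and tumor-free mice (4 positive, 22 negative) depended on the setting. Limma called 0 (0 and 0) with the 2-fold minimum, with 114 at an unadjusted p under 0.05. It called 11 (1 and 10) with the 70th percentile filter, 324 (36 and 288) with array weights and 41 (7 and 34) with the mean over probe sets. It called 96 (8 and 88) with median centering and 14 (1 and 13) with quantile normalization, and group weights left 1 positive gene. Leaving out 1 array gave 0 to 545 (0 to 100 and 0 to 445). The cause was not tested.

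Deviations from the group means of same-numbered samples correlated at 0.002, 0.071 and -0.046 in tumor-bearing mice. In tumor-free mice the values were 0.095, 0.074 and -0.003, and samples with different numbers gave -0.100 to 0.089 over both kinds of mice. With 3 arrays per group, such values cannot tell whether same-numbered samples share more than a number. With the replicate number as a block, limma called 1715 genes in tumor-bearing mice (943 and 772), 2142 on the 6 arrays alone (added after the data were seen; 1143 and 999), and 0 (0 and 0) for the difference of differences, with 1861 at an unadjusted p under 0.05. With 3 arrays per group, smaller differences may have been missed, and signal over background was not used here.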
